A study of Mus musculus with 11 samples.

Results

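Collagen genes encode the chains of the collagen triple helix, the main structural proteins of the matrix around testis tubules and ducts. They were taken here as the genes whose only annotated symbol on the array reads Col, a number, a and a number, with the probe set of the highest mean log2 signal for each gene. This gave 42 of the 18194 genes that had a probe set of their own, from 82 of 45101 probe sets. Of these 42 genes, 11 encode fibrillar collagens, 8 encode collagens of the basement membrane, and 23 encode other types. Col6a6 and Col28a1 were not analysed here.

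RNA was compared between pieces of the Sertoli valve (SV, 4 arrays), the rete testis (RT, 3 arrays) and the convoluted seminiferous tubules (ST, 4 arrays). All pieces came from 7-week-old W/Wv mice, whose Kit mutations leave the tubules depleted of germ cells, and no wild-type tissue was analysed here. Each array held RNA from a pool of 20 testes, in which the regions had been made visible by trypan blue injected through the efferent ducts and then cut apart by hand. The SV is the short end segment where a tubule opens into the RT, and according to the methods an SV piece probably also held RT cells, while ST pieces were taken further along the tubule. Values are MAS5 signals, a linear measure of array brightness. Because the probes of 2 probe sets bind with different strength, signals were compared between regions and not between genes.

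Fibrillar collagens (types I, III, V and their relatives) form the banded fibrils of connective tissue. Type IV chains build the sheet-like network of every basement membrane, and types XV and XVIII sit at the outer face of that membrane. Other types decorate fibrils (the FACIT group), form beaded filaments (type VI) or hexagonal lattices (type VIII), or span the plasma membrane. In the testis, collagens lie under the epithelium of the tubules and of the RT, between layers of peritubular cells, and in the stroma.

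Region markers followed the labels. Of 14 measured markers of rete testis epithelium, 10 were higher in SV than in ST and 13 were higher in RT than in ST, and their summed signal was 5389–12509 in SV arrays, 35415–54836 in RT arrays and 1352–1646 in ST arrays. Of 14 measured Sertoli cell markers 8 were lower in RT than in ST, and limma called none in SV against ST (at an unadjusted p under 0.05, 4 were lower and 0 higher, beside 6.41% and 12.0% of all genes). Shares of all genes called were 2.39% higher in SV than in ST, and 12.5% higher and 7.34% lower in RT than in ST. The first 2 replicates of each region differed from the rest in control probes, with an 18S 3′ signal of 20675–32135 in replicates 1 and 2, against 6063.5–12751 elsewhere. The ratio of 3′ to 5′ signal of Actb was 1.31–1.43 in replicates 1 and 2, against 1.73–2.12 elsewhere. That of Gapdh overlapped, at 0.66–0.87 and 0.61–0.80. Each array had the same trimmed mean, and array medians were 65.8–110.4.

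Of the 42 collagen genes, 11 were higher in RT than in ST by more than 2-fold at an adjusted p under 0.05 (limma) and none was lower, while over all genes 12.5% were called higher and 7.34% lower in RT. Calls come from limma, fitted to log2 signals, and p-values were adjusted over the 45101 probe sets together by the method of Benjamini and Hochberg. The median log2 fold change of the 42 genes was 0.61 in RT against ST, beside 0.08 over all genes, and 33 of the 42 were positive. At the adjusted p alone, with no fold threshold, 18 collagen genes were higher in RT, beside 19.4% of all genes. Every RT array lay above every ST array for 20 of the 42 genes, as it did for 24.5% of all genes. For 1 gene, the hemidesmosome collagen Col17a1, every RT array lay below every ST array, with signals of 44.8, 53.4 and 60.2 in RT and 62.4, 84.1, 76.8 and 67.9 in ST (log2 fold change -0.46, adjusted p = 0.46). In bulk pieces such as these, fewer cells of a type and less RNA per cell cannot be told apart.

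No collagen gene was called in SV against ST (limma), where 2.39% of all genes were called higher and 0.0769% lower. With an unadjusted p under 0.05, 14 of the 42 were higher and 0 were lower, beside 12.0% of all genes higher. The median log2 fold change of the 42 genes in SV against ST was 0.32, beside 0.02 over all genes, and every SV array lay above every ST array for 9 of the 42, beside 7.19% of all genes. With the replicate number as a block, 1 gene, Col9a3, was called higher in SV than in ST, beside 3.30% of all genes, and 7 passed the adjusted p alone, Col1a1, Col5a1, Col4a5, Col18a1, Col6a1, Col8a2 and Col9a3, beside 7.57% of all genes. Between SV and RT, 2 collagen genes, Col1a1 and Col8a2, were lower in SV and none was higher (1 at an unadjusted p under 0.05), beside 6.41% of all genes lower and 4.39% higher. At the adjusted p alone 6 were lower in SV than in RT, beside 10.9% of all genes, and with the replicate block 4 were lower by more than 2-fold, Col1a1, Col15a1, Col6a2 and Col8a2, beside 7.68% of all genes. At the adjusted p alone the block gave 14 lower in SV than in RT, beside 16.6% of all genes. Because the 3 comparisons share arrays, each is given with its own values.

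These counts differed with the scaling. With quantile normalization 10 of the 42 collagen genes were called higher in RT than in ST, beside 1857 of all 18194 genes. With each array centred on its median 4 of the 42 were, namely Col1a1, Col27a1, Col9a3 and Col8a2, beside 1452 of all 18194 genes. Median centring moved the median log2 fold change of all genes in RT against ST by -0.42, to -0.35, and the collagen median was then 0.19. Among all called genes the share higher in RT was 63.0% as deposited, 51.8% under quantile normalization and 34.8% after median centring. In SV against RT the collagen median was -0.39 as deposited, -0.26 under quantile normalization and -0.07 after median centring, beside -0.04, 0.07 and 0.27 over all genes, and the share of all calls higher in SV was 40.7%, 51.9% and 67.9%. In RT against ST the collagen median lay above that of all genes as deposited and under quantile normalization (0.45 beside -0.08). Median centring moves every gene of an array alike, so it could not change the distance between these medians.

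**Figure D1:**
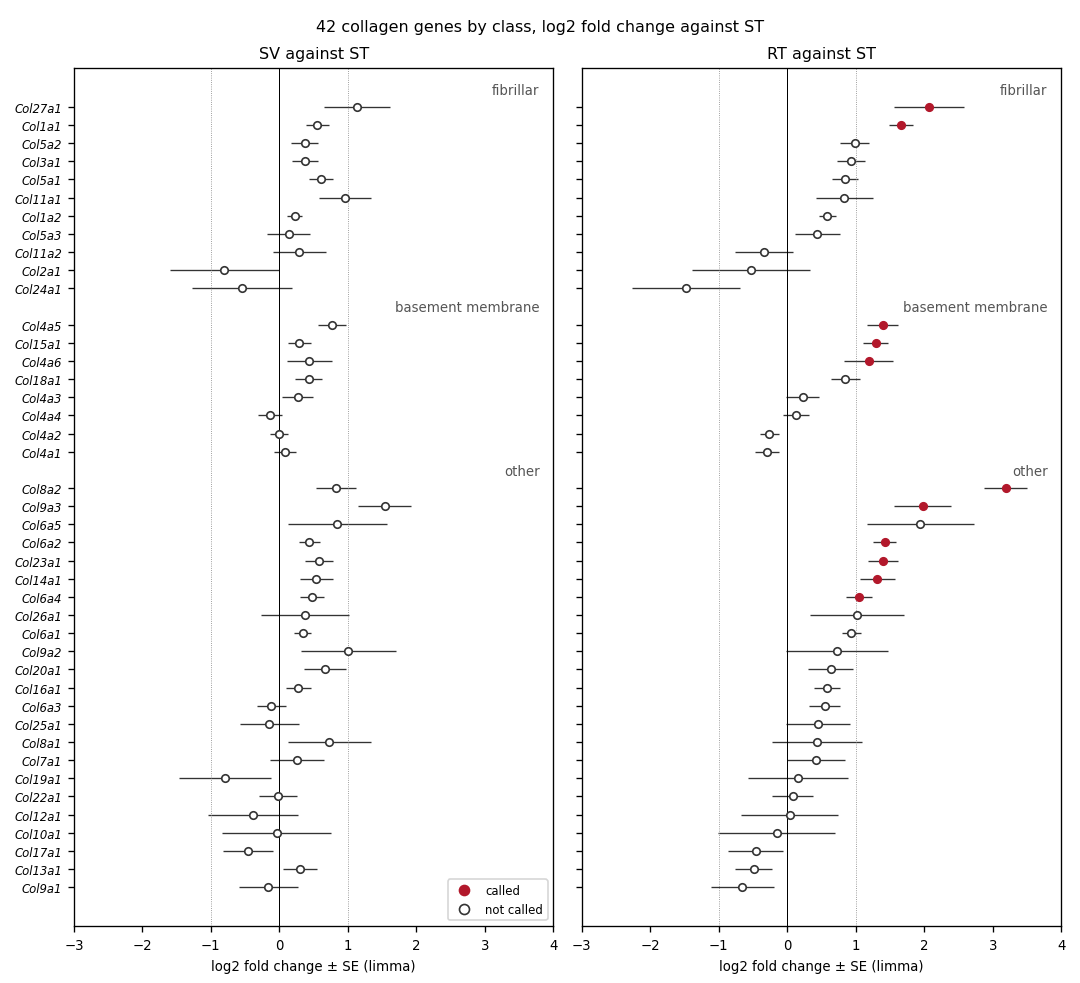
Log2 fold change with its standard error (x axis) of each of the 42 collagen genes (y axis, grouped by class) in SV against ST (left) and RT against ST (right), with called genes filled and dotted lines at a 2-fold change. The 11 filled genes in RT lie right of the dotted line, from 1.05 for Col6a4 to 3.19 for Col8a2, and no gene is filled in SV.

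The 11 fibrillar collagens had a median log2 fold change of 0.83 in RT against ST, beside 0.53 over the 8 basement membrane genes and 0.58 over the 23 others. Among genes above the median signal of all genes the medians were 0.93 for 5 fibrillar, 0.23 for 7 basement membrane and 0.94 for 5 other genes. Of the 11, 2 were called higher in RT, Col1a1 and Col27a1, and 6 passed the adjusted p without the fold threshold, beside 12.5% and 19.4% of all genes. No test between classes was made.

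Col1a1 encodes the alpha 1 chain of type I collagen, the most common fibril protein of the body. The signals of Col1a1 were 325, 321, 298 and 392 in SV, 918, 597 and 662 in RT, and 225, 239.6, 232 and 209 in ST. In this probe set the 3 regions did not overlap, with RT highest, SV between and ST lowest. Col1a1 had a log2 fold change of 1.66 ± 0.18 (SE) in RT against ST (adjusted p = 1.8e-05) and -1.10 ± 0.18 in SV against RT (adjusted p = 0.0012), while SV against ST, at 0.56 ± 0.16, had an adjusted p of 0.11, or 0.045 with the replicate block. Without RT replicate 1, the highest of the RT arrays, Col1a1 was no longer called in SV against RT. A second probe set of Col1a1 (1423669_at) was also called higher in RT than in ST (1.31, adjusted p = 0.0053). There SV, at 294, 392, 166 and 305, overlapped with RT (739, 527 and 340) and ST (185, 249, 190 and 206). It was not called in SV against RT (-0.88, adjusted p = 0.068, or 0.011 with the block, under 2-fold). In SV against ST it had 0.42 (adjusted p = 0.59, or 0.25 with the block).

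Col1a2, the partner chain of type I collagen, was above ST in RT by less than 2-fold. The signals of Col1a2 were 9838, 9571, 9405 and 9327 in SV, 13821, 11426 and 11672 in RT, and 9102, 8277, 7973 and 7427 in ST. Its regions also did not overlap, in the same order as for Col1a1. Col1a2 had a log2 fold change of 0.59 ± 0.12 in RT against ST (adjusted p = 0.0026) and 0.22 ± 0.11 in SV against ST (adjusted p = 0.43). A second probe set of Col1a2 (1423110_at), with signals of 4495, 3397 and 3868 in RT and 2108, 1609.9, 1823 and 1973 in ST, was called higher in RT at 1.06 (adjusted p = 9.8e-05).

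Col3a1 encodes the chain of type III collagen, which runs in thin fibrils beside type I. The signals of Col3a1 were 8371, 7757, 6028 and 7073 in SV, 13043, 9638 and 9574 in RT, and 8289.9, 5416, 4485 and 4827 in ST. All RT arrays lay above all SV and ST arrays, while SV and ST overlapped through ST replicate 1. Col3a1 had a log2 fold change of 0.93 ± 0.21 in RT against ST (adjusted p = 0.0043), just under 2-fold. Its other probe set (1427884_at) was called, with signals of 652, 684, 639.8 and 804 in SV, 1172, 921 and 1045 in RT, and 381, 402, 463 and 509 in ST. That probe set differed by 1.26 on the log2 scale in RT against ST (adjusted p = 4.7e-05) and 0.67 in SV against ST (adjusted p = 0.024, under 2-fold).

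Col5a2, which lies beside Col3a1 on chromosome 1 and encodes a type V chain that takes part in the start of type I fibrils, had signals of 367, 293, 302 and 525 in SV, 641, 472 and 557 in RT, and 319, 252, 252 and 300.1 in ST. Every RT array was above every ST array, but SV replicate 4 reached into the RT range. Col5a2 had a log2 fold change of 0.98 ± 0.21 in RT against ST (adjusted p = 0.0035). A dimmer probe set (1450625_at), at 62.4, 63.2, 63.0 and 77.6 in SV, 212, 170.0 and 162 in RT, and 42.4, 59.1, 35.7 and 90.8 in ST, was called higher in RT than in ST (1.75, adjusted p = 0.0017) and lower in SV than in RT (-1.44, adjusted p = 0.012).

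Col27a1 encodes a fibrillar chain known from cartilage. The signals of Col27a1 were 117, 159, 61.7 and 195 in SV, 276, 222 and 209 in RT, and 30.7, 137, 30.9 and 74.6 in ST. RT arrays were highest and did not overlap with the others, whereas ST spread over more than 4-fold and overlapped with SV. In RT against ST the fold change on the log2 scale was 2.07 ± 0.52 (adjusted p = 0.0093), and in SV against ST 1.13 ± 0.48 (adjusted p = 0.32). Its other probe set (1429549_at) had 0.88 in RT against ST (adjusted p = 0.055).

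Of the remaining fibrillar genes, Col5a1 had 0.84 ± 0.19 in RT against ST (adjusted p = 0.0046, under 2-fold), and 0.61 ± 0.17 in SV against ST (adjusted p = 0.099, or 0.026 with the block). Col5a3, Col11a1, Col11a2, Col2a1 and Col24a1 did not pass, at values between -1.48 and 0.83. Col2a1, the fibrillar chain of cartilage, stayed at signals of at most 16.8 in every array.

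Of the 8 basement membrane genes, Col4a5, Col4a6 and Col15a1 were called higher in RT than in ST, beside 12.5% of all genes. The type IV chains are encoded by 3 pairs of neighbouring genes, Col4a1 with Col4a2, Col4a3 with Col4a4, and Col4a5 with Col4a6. The Col4a1 and Col4a2 chains make the network found in nearly every basement membrane, the Col4a3, Col4a4 and Col4a5 chains make the network of the kidney filter and some other membranes, and Col4a6 joins Col4a5 in a further network. Of the 6 type IV genes, the pair on the X chromosome was higher in RT than in ST and the other 4 genes were not called in any comparison, and no test of a difference between pairs was made.

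The promoter windows of the Col4a1 and Col4a2 pair and of the Col4a5 and Col4a6 pair are shown because neighbours within each pair start on opposite strands, close to each other. Each is the RefSeq window of 250 bases before to 50 bases after the annotated start on GRCm38.p6, written 5′ to 3′ on the strand of its own gene. Capitals in the Col4a1 window (chr8:11312777-11313076, minus strand) and the Col4a2 window (chr8:11312555-11312854, plus strand) mark the 78 bases that the windows share, each the reverse complement of the other. Capitals in the Col4a5 window (chrX:141475169-141475468, plus strand) and the Col4a6 window (chrX:141474027-141474326, minus strand) mark the motifs CCAAT and GGGCGG on either strand.
Col4a1: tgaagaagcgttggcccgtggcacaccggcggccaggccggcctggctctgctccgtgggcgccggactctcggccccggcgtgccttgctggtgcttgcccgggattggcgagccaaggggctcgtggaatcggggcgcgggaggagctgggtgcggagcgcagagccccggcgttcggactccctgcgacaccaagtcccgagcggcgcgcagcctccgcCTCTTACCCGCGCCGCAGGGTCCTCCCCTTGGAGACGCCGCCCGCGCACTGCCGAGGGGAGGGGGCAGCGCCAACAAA
Col4a2: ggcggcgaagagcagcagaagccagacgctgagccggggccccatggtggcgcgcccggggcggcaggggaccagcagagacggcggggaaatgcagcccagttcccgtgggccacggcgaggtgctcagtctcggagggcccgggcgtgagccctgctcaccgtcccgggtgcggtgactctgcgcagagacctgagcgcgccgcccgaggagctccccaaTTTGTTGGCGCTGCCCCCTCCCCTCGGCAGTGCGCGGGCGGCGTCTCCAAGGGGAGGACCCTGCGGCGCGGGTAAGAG
Col4a5: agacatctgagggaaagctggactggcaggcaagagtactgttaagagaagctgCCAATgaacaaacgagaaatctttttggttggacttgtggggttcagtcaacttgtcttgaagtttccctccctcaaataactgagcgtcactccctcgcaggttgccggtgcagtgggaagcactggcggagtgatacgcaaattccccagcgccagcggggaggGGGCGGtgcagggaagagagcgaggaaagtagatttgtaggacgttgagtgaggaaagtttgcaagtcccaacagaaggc
Col4a6: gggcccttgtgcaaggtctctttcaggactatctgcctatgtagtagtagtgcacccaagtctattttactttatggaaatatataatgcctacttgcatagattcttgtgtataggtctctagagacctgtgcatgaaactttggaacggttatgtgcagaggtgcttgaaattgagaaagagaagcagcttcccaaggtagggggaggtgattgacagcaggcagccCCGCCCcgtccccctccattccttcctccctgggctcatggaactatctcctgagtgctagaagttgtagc

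Windows of Col4a5 and Col4a6 do not overlap. The Col4a5 window held 1 CCAAT and 1 GGGCGG and the Col4a6 window held 1 GGGCGG. Of all 32851 promoter windows, 37.4% held CCAAT and 35.7% held GGGCGG on either strand, and of the 36 windows found for 33 of the 42 collagen genes 13 held CCAAT and 22 held GGGCGG. The motif TATAAA was in 5 of these 36 windows and in 13.6% of all windows. Collagen windows had a median GC content of 59.8%, beside 52.7% over all windows. A match is only a match of letters.

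Col4a5 had signals of 3140.3, 3296, 1669 and 3145 in SV, 4738, 4314 and 3586 in RT, and 1530.5, 1939.7, 1283 and 1691 in ST. RT was highest without overlap, 3 SV arrays lay between RT and ST, and SV replicate 3 fell within the ST range. Col4a5 had a log2 fold change of 1.39 ± 0.23 in RT against ST (adjusted p = 0.00046) and 0.77 ± 0.21 in SV against ST (adjusted p = 0.082, or 0.0036 with the replicate block, under 2-fold). Without SV replicate 3, Col4a5 was called higher in SV than in ST. Both of its probe sets were called in RT.

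Col4a6 had signals of 336, 224, 105 and 346 in SV, 376, 377 and 398 in RT, and 207, 204, 128 and 149 in ST. The RT arrays were close together and above all others, while SV ran from below the lowest ST array to near the RT arrays. Col4a6 had a log2 fold change of 1.19 ± 0.35 in RT against ST (adjusted p = 0.024) and 0.44 ± 0.33 in SV against ST (adjusted p = 0.66). This call was lost in 11 of 25 alternatives, among them without any 1 RT array and without ST replicate 3 or 4, whereas its other probe set (1421007_at) was called at 1.52 (adjusted p = 0.0013).

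Col4a1 and Col4a2 did not pass the test in any comparison with their brightest probe sets. The signals of Col4a1 were 1554, 2148, 1903 and 2639.6 in SV, 1285, 1608 and 1845 in RT, and 1770.1, 1818, 1951 and 2146 in ST. The signals of Col4a2 were 1416, 1465, 1567 and 1731 in SV, 1202, 1117 and 1581 in RT, and 1553, 1533, 1392 and 1703 in ST. For both of these probe sets the 3 regions overlapped. In RT against ST the fold change on the log2 scale was -0.29 ± 0.18 for Col4a1 (adjusted p = 0.27) and -0.26 ± 0.14 for Col4a2 (adjusted p = 0.21). A dimmer probe set of Col4a1 (1426348_at) had signals of 569, 778, 719 and 1321 in SV, 402, 563 and 550.4 in RT, and 599, 747, 664 and 849 in ST. There every RT array was below every SV array and every ST array, and on the log2 scale it differed by -0.50 ± 0.24 in RT against ST (adjusted p = 0.16) and 0.69 ± 0.24 in SV against RT (adjusted p = 0.083, or 0.53 and 0.014 with the replicate block).

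The brightest probe sets of Col4a3 and Col4a4 overlapped over the regions as well. The signals of Col4a3 were 354, 474, 299 and 540.3 in SV, 489.9, 319 and 393 in RT, and 432, 368, 259 and 314 in ST. The signals of Col4a4 were 2202, 2401, 1857 and 2617 in SV, 2807, 2898 and 2449.7 in RT, and 3281, 2146, 1849 and 2920.4 in ST. Their log2 fold changes in RT against ST were 0.23 ± 0.24 for Col4a3 (adjusted p = 0.57) and 0.13 ± 0.19 for Col4a4 (adjusted p = 0.70). Both other probe sets of Col4a4 had every RT array above every ST array without passing the test, 1440250_at at 0.36 ± 0.14 (adjusted p = 0.085) and 1425772_at at 0.40 ± 0.22 (adjusted p = 0.22). Signals of 1440250_at were 1474, 1943, 1965 and 2144 in SV, 2191, 1927 and 2111 in RT, and 1498, 1514, 1622 and 1856 in ST.

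**Figure D2:**
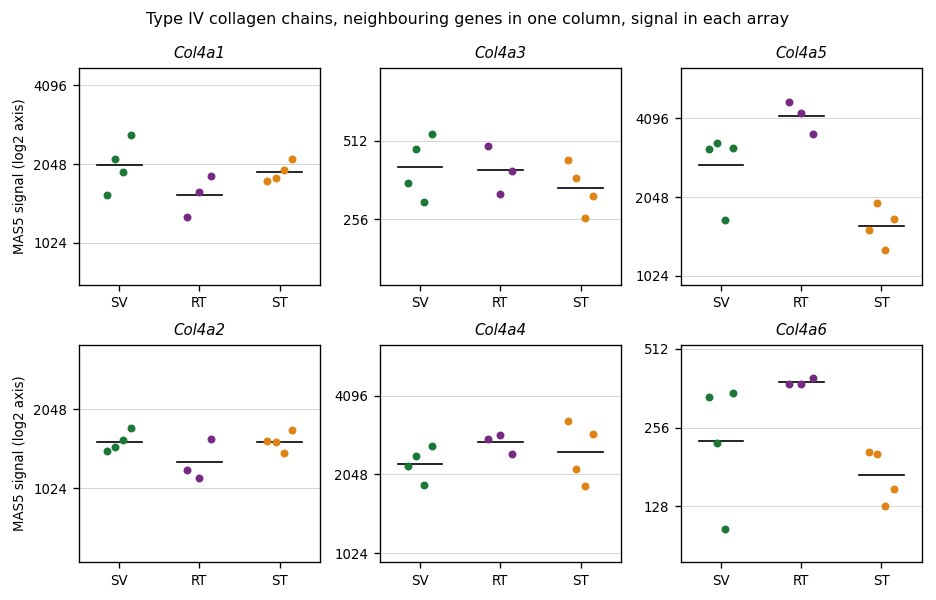
MAS5 signal on a log2 axis (y axis) of the 6 type IV collagen genes in each SV, RT and ST array (x axis), with neighbouring genes in one column and a line at the geometric mean. Only in the column of Col4a5 and Col4a6 do all RT arrays lie above all ST arrays, and SV replicate 3 is the lowest SV array of both genes.

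Col15a1 encodes type XV collagen, a proteoglycan of the outer basement membrane zone around muscle and vessels. The signals of Col15a1 were 287, 306, 243 and 365 in SV, 588, 599 and 591 in RT, and 195, 232, 256 and 299 in ST. RT stood apart and SV and ST overlapped. Col15a1 had a log2 fold change of 1.29 ± 0.19 in RT against ST (adjusted p = 0.00019). In SV against RT it was -0.995 ± 0.19 (adjusted p = 0.0031), a little under 2-fold, and -1.10 with the replicate number as a block (adjusted p = 0.00028), which then counts as called. Col18a1, whose chain holds the endostatin fragment, had 0.84 ± 0.21 in RT against ST (adjusted p = 0.0099, under 2-fold), and 0.43 ± 0.20 in SV against ST (adjusted p = 0.37, or 0.0079 with the block). Its other probe set (1418237_s_at), nearly as bright, had RT and ST arrays that overlapped. That probe set had 0.26 ± 0.18 in RT against ST (adjusted p = 0.35, or 0.043 with the block). In SV against ST it had 0.05 ± 0.17 (adjusted p = 0.95, or 0.83 with the block).

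Of the 23 other collagens, 6 were higher in RT than in ST, beside 12.5% of all genes: Col6a2, Col6a4, Col9a3, Col14a1, Col8a2 and Col23a1. Col8a2 showed the largest change of all 42 genes. It encodes a short chain of type VIII collagen, which builds hexagonal lattices and is best known from the Descemet membrane of the cornea. The RefSeq window of Col8a2 (chr4:126286544-126286843, plus strand, GRCm38.p6) is shown since this gene changed most. Capitals mark GGGCGG on either strand, found at 4 positions of which 2 overlap.
Col8a2: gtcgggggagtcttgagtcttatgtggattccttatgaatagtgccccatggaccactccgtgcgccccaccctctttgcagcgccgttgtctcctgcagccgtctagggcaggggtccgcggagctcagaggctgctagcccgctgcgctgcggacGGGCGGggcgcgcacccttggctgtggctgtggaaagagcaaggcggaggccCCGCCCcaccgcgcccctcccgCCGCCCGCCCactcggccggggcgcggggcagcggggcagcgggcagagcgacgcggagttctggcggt

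Col8a2 had signals of 245, 151, 119 and 186 in SV, 1081, 1068 and 564 in RT, and 105, 91.4, 66.1 and 129 in ST. Each RT array was more than 2-fold above the highest SV array, and SV and ST overlapped. Col8a2 had a log2 fold change of 3.19 ± 0.31 in RT against ST (adjusted p = 1.0e-05) and -2.36 ± 0.31 in SV against RT (adjusted p = 0.00042). In SV against ST it was 0.83 ± 0.29 (adjusted p = 0.20, or 0.013 with the replicate block, under 2-fold). Col8a1, the other type VIII chain, had 0.44 ± 0.66 in RT against ST (adjusted p = 0.70).

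Type VI collagen forms beaded filaments near cell surfaces, from a Col6a1 chain, a Col6a2 chain and 1 further chain (Col6a3, or Col6a4 or Col6a5 in its place). The signals of Col6a1 were 1847, 1702, 1685 and 2096 in SV, 3098, 2374 and 2857 in RT, and 1532, 1323, 1355 and 1575 in ST. The signals of Col6a2, its neighbour on chromosome 10, were 1178, 1107, 1426 and 1674 in SV, 3266, 2437 and 2278 in RT, and 975, 852, 1074 and 1038 in ST. For both genes the regions did not overlap, with RT highest and ST lowest. In RT against ST the fold change on the log2 scale was 1.42 ± 0.17 for Col6a2 (adjusted p = 4.7e-05) and 0.94 ± 0.13 for Col6a1 (adjusted p = 0.00017, under 2-fold). In SV against RT, Col6a2 had -0.98 ± 0.17 (adjusted p = 0.0020), and -1.05 with the replicate block (adjusted p = 0.00029), past 2-fold. Col6a1 had 0.34 in SV against ST (adjusted p = 0.22, or 0.029 with the block).

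The further chains were less even. The signals of Col6a4 were 274, 267, 251 and 244 in SV, 314, 408 and 448 in RT, and 163, 165, 232 and 194 in ST, with no overlap between regions. Col6a4 had a log2 fold change of 1.05 ± 0.19 in RT against ST (adjusted p = 0.0010), close to the 2-fold threshold and lost without RT replicate 3, ST replicate 1 or ST replicate 2. The dimmer probe set of Col6a4 (1445470_at) had -0.26 (adjusted p = 0.82). Col6a5, beside Col6a4 on chromosome 9, had signals of 39.4, 31.7, 8.24 and 27.6 in SV, 43.3, 47.4 and 58.3 in RT, and 27.1, 18.9, 18.9 and 2.84 in ST. RT was above both other regions, at low signal, and the log2 fold change of 1.94 ± 0.78 in RT against ST did not pass (adjusted p = 0.092). Col6a3 had 0.54 ± 0.23 (adjusted p = 0.11).

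Among the FACIT collagens, which attach to the surface of fibrils, Col9a3 and Col14a1 were called. Col9a3 encodes a chain of type IX collagen, known from cartilage. The signals of Col9a3 were 182, 99.6, 78.0 and 132 in SV, 130.0, 127 and 240.1 in RT, and 48.1, 20.6, 47.8 and 55.7 in ST. SV and RT arrays overlapped with each other and both lay above ST. Col9a3 had a log2 fold change of 1.98 ± 0.42 in RT against ST (adjusted p = 0.0033) and 1.54 ± 0.39 in SV against ST (adjusted p = 0.061), the largest value of SV against ST among the 42 genes. With the replicate number as a block, SV against ST had adjusted p = 0.021 and counted as called, which among the brightest probe sets held for Col9a3 alone. A second probe set of Col9a3 (1460693_a_at) had 1.505 in RT against ST (adjusted p = 0.036) and 1.79 in SV against ST (adjusted p = 0.060, or 0.015 with the block). Dimmer probe sets of Col11a1 (1449154_at, 1.86, adjusted p = 0.026) and Col12a1 (1434411_at, 3.11, adjusted p = 0.0093) also passed in SV against ST with the block. All ST signals of both probe sets were under 32. With signals under 32 set to 32, and without the block, that of Col11a1 did not pass (1.08, adjusted p = 0.14).

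Col14a1 encodes type XIV collagen, which binds fibrils of type I. The signals of Col14a1 were 148, 111, 102 and 154 in SV, 239, 201 and 211 in RT, and 110.0, 99.9, 72.0 and 72.5 in ST. RT was above SV and ST, which overlapped. Col14a1 had a log2 fold change of 1.32 ± 0.26 in RT against ST (adjusted p = 0.0018). Of its other probe sets, 1428455_at had 1.01 (adjusted p = 0.078) and 1453931_at, with signals under 6 in every array, had -0.092 (adjusted p = 0.95).

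Col23a1 encodes a collagen that spans the plasma membrane. The signals of Col23a1 were 229, 173, 179 and 206 in SV, 440.4, 306 and 308 in RT, and 157, 133, 136 and 104 in ST. The regions did not overlap. Col23a1 had a log2 fold change of 1.40 ± 0.22 in RT against ST (adjusted p = 0.00033), and all 3 of its probe sets were called there. In SV against RT it had -0.82 ± 0.22 (adjusted p = 0.022, under 2-fold), and its probe set 1429210_at was called lower at -1.52 (adjusted p = 0.033).

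Col13a1, another membrane-spanning collagen, had its lowest array in RT. Its signals were 307, 246, 166 and 249 in SV, 135, 104 and 178 in RT, and 205, 149, 177 and 248 in ST, with overlap in each comparison. In SV against RT the fold change on the log2 scale was 0.80 ± 0.27 (adjusted p = 0.066), and a call of higher in SV came with median centring, within replicates 1 and 2, and under quantile normalization.

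**Figure D3:**
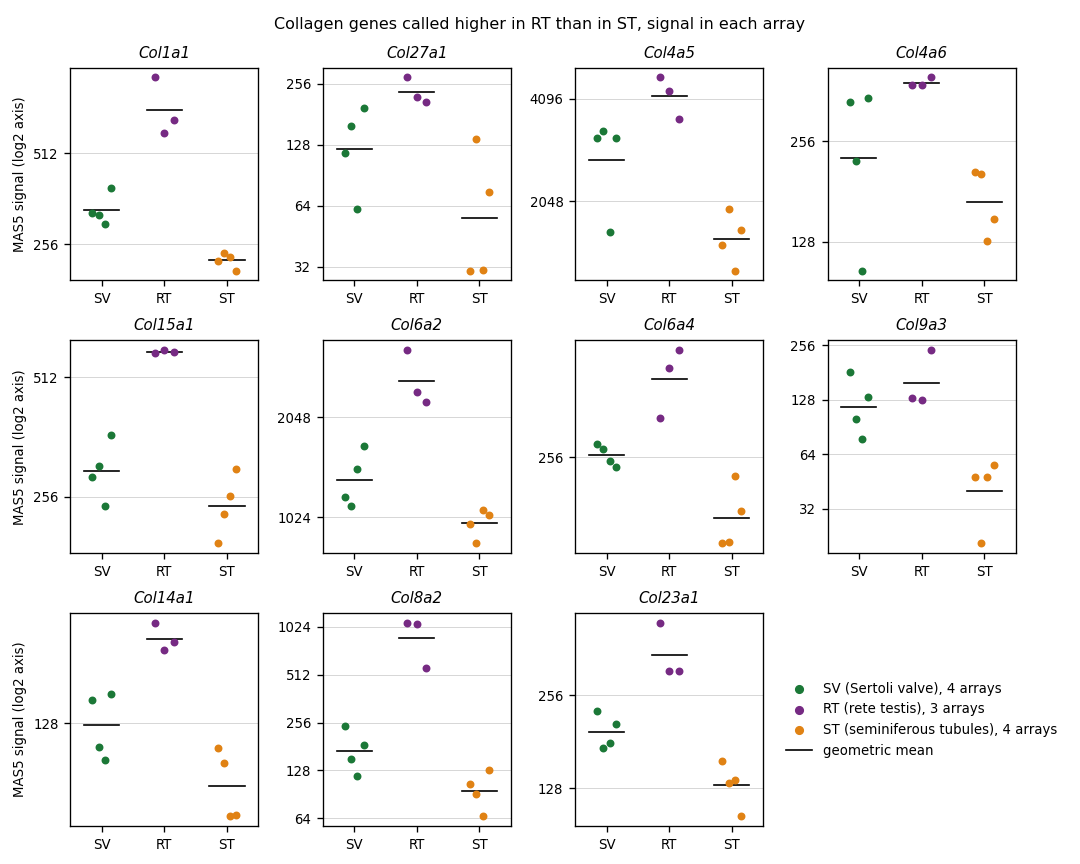
MAS5 signal on a log2 axis (y axis, a separate range in each panel) of the 11 collagen genes called higher in RT than in ST, in each SV, RT and ST array (x axis), with a line at the geometric mean. In each panel the 3 RT points lie above all ST points, and the SV mean lies between the RT and ST means.

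Genes with several probe sets did not always give 1 answer. Of 27 such genes, 5 had all of their probe sets called higher in RT than in ST, 11 had none called and 11 had some called. In 7 of these, Col5a1, Col11a1, Col5a2, Col1a2, Col12a1, Col3a1 and Col22a1, the call came only from a probe set other than the brightest. Counting a gene when any of its probe sets was called gave 18 of 42 in RT against ST, beside 15.0% of all genes counted the same way and 10.2% of all probe sets. Probe sets that read different parts of a transcript were not assigned to isoforms here.

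Col12a1, a FACIT collagen of tendon and other dense tissue, gave different values by probe set. Its brightest probe set (1427391_a_at) had signals of 73.4, 71.5, 8.62 and 74.4 in SV, 63.8, 50.9 and 58.4 in RT, and 38.9, 129, 40.2 and 49.1 in ST, and a log2 fold change of 0.04 in RT against ST (adjusted p = 0.98). Probe set 1434411_at had 67.6, 63.0, 55.5 and 49.1 in SV, 142, 88.1 and 83.5 in RT, and 7.63, 28.2, 5.58 and 1.75 in ST, so that all ST arrays were below all others. It was called higher in RT (3.904, adjusted p = 0.0013) and in SV (3.11, adjusted p = 0.030), the only collagen probe set called in SV against ST. All ST signals of this probe set were under 32, and with signals under 32 set to 32 it gave 1.66 on the log2 scale in RT against ST (adjusted p = 0.00027) and 0.87 in SV against ST (adjusted p = 0.044, under 2-fold).

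**Figure D4:**
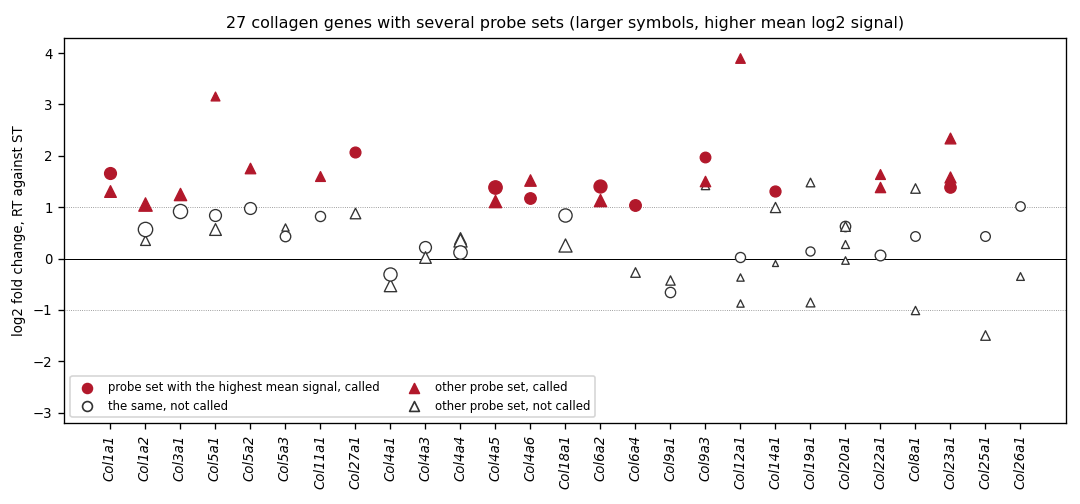
Log2 fold change in RT against ST (y axis) of every probe set of the 27 collagen genes with more than 1 (x axis). Circles are the brightest probe set of a gene, triangles the others, filled symbols are called, and larger symbols have a higher mean log2 signal. Col12a1 has its brightest probe set at 0.04 and a dim one at 3.904, which is 1.66 with signals under 32 set to 32.

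Genes that act on collagens gave called members in both directions. Of 83 genes in 7 lists, 78 were measured, and in RT against ST 12 were higher (15.4% of those measured) and 4 lower (5.13%), with a median log2 fold change of 0.32, beside 12.5%, 7.34% and 0.08 over all genes. In SV against ST none was called (limma), with a median of 0.14 and, at an unadjusted p under 0.05, 3 lower and 17 higher (21.8% of those measured), beside 6.41% lower and 12.0% higher of all genes. At the adjusted p alone 3 of the 78 were higher in SV, all under 2-fold, beside 610 of all 18194 genes. Among the 3 was the collagen chaperone Serpinh1 at 0.69 ± 0.16 (adjusted p = 0.046). Between SV and RT, 4 were higher in SV (5.13%) and 7 lower (8.97%), beside 4.39% and 6.41% of all genes.

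Crosslinking enzymes had the largest list median in RT against ST, 0.79 over 6 genes, of which 3 were higher, beside 12.5% of all genes. Lox, a lysyl oxidase that crosslinks fibrillar collagen, had signals of 132, 99.8, 70.5 and 104 in SV, 386, 279 and 161 in RT, and 90.5, 65.8, 74.0 and 74.6 in ST. Lox had a log2 fold change of 1.77 ± 0.32 in RT against ST (adjusted p = 0.0010) and -1.39 ± 0.32 in SV against RT (adjusted p = 0.011). Loxl1, a related oxidase, had 1.38 ± 0.18 in RT against ST (adjusted p = 9.6e-05), and Pxdn, the peroxidase that crosslinks type IV collagen, had 1.10 ± 0.20 (adjusted p = 0.0012).

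Enzymes that modify the chains before folding had calls in both directions. Of 15 genes for hydroxylation of proline and lysine, 2 were higher and 1 lower in RT than in ST. Over all genes 12.5% were higher and 7.34% lower in RT. P3h2, a prolyl 3-hydroxylase, had signals of 169, 159, 103 and 192 in SV, 411, 371 and 450.1 in RT, and 79.3, 45.4, 19.7 and 89.4 in ST, with no overlap between regions. P3h2 had a log2 fold change of 3.03 ± 0.44 in RT against ST (adjusted p = 0.00020) and -1.43 ± 0.44 in SV against RT (adjusted p = 0.045). P3h3 was just past 2-fold in RT at 1.00 ± 0.26 (adjusted p = 0.011). Colgalt1, which adds galactose to hydroxylysine, was lower in RT at -1.21 ± 0.26 (adjusted p = 0.0036). Plod2, the lysyl hydroxylase that acts on the ends of fibrillar chains, was higher in SV than in RT at 1.05 ± 0.17 (adjusted p = 0.0012), with signals of 3302, 3673, 3117 and 3694 in SV, 1309, 1602 and 2204 in RT, and 2921, 2219, 2656 and 2529 in ST.

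Folding and processing genes were called in smaller number. Serpinh1, which binds procollagen in the endoplasmic reticulum, was higher in RT than in ST at 1.21 ± 0.18 (adjusted p = 0.00022), and Klhl12, an adaptor for the export of procollagen in large vesicles, was lower at -1.42 ± 0.23 (adjusted p = 0.00041). Klhl12 was also higher in SV than in RT at 1.01 ± 0.23 (adjusted p = 0.0094). Bmp1, the protease that removes the C-terminal propeptide of fibrillar collagens, was higher in RT at 1.85 ± 0.31 (adjusted p = 0.00066). It was the 1 call among 9 measured propeptide genes, beside 12.5% of all genes higher in RT than in ST. Of 10 measured collagen receptors none was called in any of the 3 comparisons (limma, with 1 higher in RT against ST and 1 higher in SV against RT at an unadjusted p under 0.05, and 0 in SV against ST).

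Among 15 fibril assembly proteins Fn1, which encodes fibronectin, was higher in RT than in ST at 1.22 ± 0.19 (adjusted p = 0.00040), and Comp, a cartilage matrix protein, was lower at -2.29 ± 0.49 (adjusted p = 0.0036). These were the only calls of the list in RT against ST, beside 12.5% of all genes higher and 7.34% lower. Dpt, which encodes dermatopontin, was lower in SV than in RT at -1.66 ± 0.21 (adjusted p = 0.00033). Comp had low signals, 7.26, 20.5 and 13.0 in RT against 37.8, 60.6, 97.4 and 61.4 in ST.

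Basement membrane partners held the largest change of these lists, with 4 of 15 higher and 1 lower in RT than in ST. The shares over all genes were 12.5% higher and 7.34% lower. Fras1, a protein of the zone under epithelia, had 84.6, 52.7, 25.7 and 94.1 in SV, 236, 238 and 258 in RT, and 32.3, 20.3, 26.1 and 12.9 in ST, with a log2 fold change of 3.49 ± 0.47 in RT against ST (adjusted p = 0.00012). The laminin chain gene Lama5 was higher in RT at 2.61 ± 0.27 (adjusted p = 1.4e-05), while Lama1, a laminin chain of the tubule wall, was lower at -1.82 ± 0.26 (adjusted p = 0.00019). Agrn, a heparan sulfate proteoglycan, was higher in RT at 1.77 ± 0.23 (adjusted p = 9.1e-05). The fourth gene higher in RT, Nid2, had 1.36 ± 0.22 (adjusted p = 0.00043) and was named after its value was seen. In SV against RT, Fras1, Lama5 and Agrn were lower at -2.09, -1.83 and -1.55, and Lama1 was higher at 1.48.

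**Figure D5:**
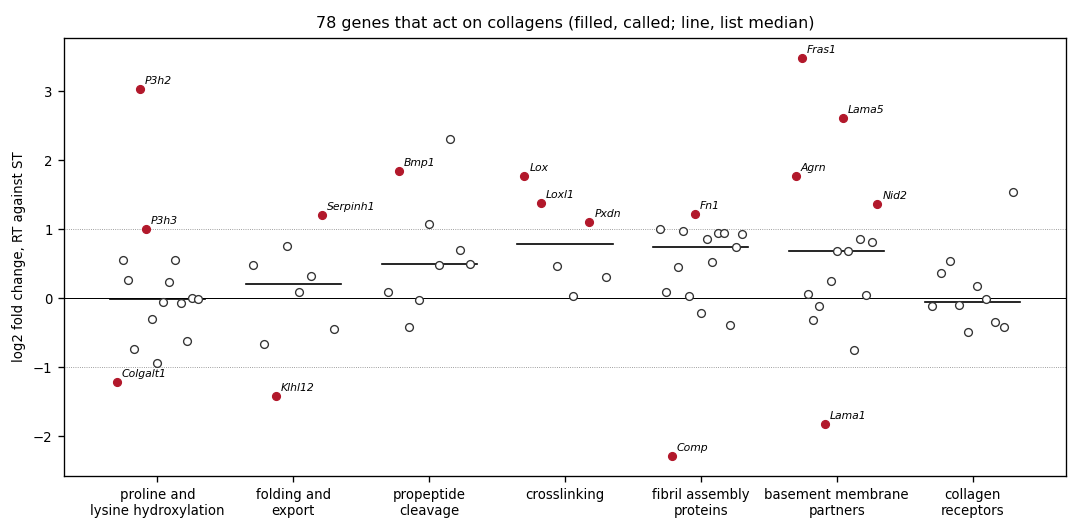
Log2 fold change in RT against ST (y axis) of 78 measured genes that act on collagens, in 7 lists (x axis), with called genes filled and named and a line at each list's median. The 12 filled genes above 0 include Fras1 at 3.49 and P3h2 at 3.03, and the 4 below 0 are Colgalt1, Klhl12, Comp and Lama1.

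Markers of cells that make matrix had fewer calls than those of the rete epithelium. Over all genes, 2.39% were higher in SV than in ST, and 12.5% were higher and 7.34% lower in RT than in ST. At the adjusted p alone 19.4% of all genes were higher in RT than in ST. Of 11 stromal fibroblast markers 1 was higher in SV than in ST and 1 was higher in RT than in ST, where 4 were higher at the adjusted p alone and 1 lower and 7 higher with an unadjusted p under 0.05. Their median there was 0.45 on the log2 scale, and their summed signal was 22900–33983 in SV arrays, 35517–40870.3 in RT arrays and 20862–32749 in ST arrays. Of 10 markers of peritubular myoid and smooth muscle cells none was called in SV against ST (limma, where 1 was lower and 0 higher with an unadjusted p under 0.05), and in RT 2 were higher and 4 lower, with sums of 17645–20065 in SV, 8520–12301 in RT and 18273–31134 in ST. Of 9 endothelial markers 1 was higher in SV and 3 in RT, with sums of 1961–4494 in SV, 4699–6028 in RT and 1249–2161 in ST. Of 12 markers of efferent duct epithelium 4 were higher in SV and 8 in RT, with sums of 19875–36232 in SV, 31917–41355 in RT and 13225–17993 in ST. The part of these cells in the collagen values was not tested.

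The other marker lists had few calls, to be read beside the same shares of all genes. Of 6 mesothelium markers 1 was higher in SV than in ST, and 1 was higher and 1 lower in RT, with sums of 539–882 in SV, 576–744 in RT and 399.999–522 in ST. Of 4 measured Leydig cell markers none was called in SV or in RT against ST (limma, 1 higher at an unadjusted p under 0.05 in SV and 0 in RT), with sums of 26721–62095 in SV, 30675–39846 in RT and 20869–44597 in ST. Of 7 macrophage markers none was called in SV (2 higher at an unadjusted p under 0.05) and 1 was higher in RT, with sums of 16293–22346 in SV, 17264–22945 in RT and 14408–17336 in ST. Of 8 germ cell markers 1 was higher in SV, and in RT 1 was higher and 4 were lower, with sums of 3718–4376 in SV, 4545–5202 in RT and 3550–6553 in ST.

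Calls were also made within replicates 1 and 2 and within replicates 3 and 4, where the share of all genes called is not given. A difference in count between these subsets is therefore not read as a result about collagens. Among replicates 1 and 2 alone, 10 collagen genes were higher in RT than in ST and 4 lower in SV than in RT. Within replicates 3 and 4, which hold 1 RT array, 4 were higher in RT than in ST (Col1a1, Col3a1, Col6a2 and Col8a2) and none lower in SV than in RT. Col8a2 differed between RT and ST by 3.46 among replicates 1 and 2 and by 2.61 among replicates 3 and 4 on the log2 scale, and Col1a1 by 1.67 and 1.59.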

How the data were processed

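The authors hybridized labelled RNA to Affymetrix Mouse Genome 430 2.0 arrays and deposited an intensity for each probe set, the linear MAS5 signal, with arrays scaled to a common mean after trimming 2% at either end. Detection calls were not used here. The table held 45101 probe sets in 11 arrays, of which 34958 had 1 gene symbol, 932 several and 9211 none, with names from the platform annotation. All 11 arrays were fitted together on log2 signal with no filter or added constant (limma 3.58.1, lmFit and eBayes with an intensity trend, R 4.3.3). The number of arrays limits the precision, and since each array is a pool, p-values measure the spread between pools. The fit was tested on simulated data with independent normal noise, and the changes put in were all larger than 2-fold. The simulation had no shift between replicates and no pairing, so it does not cover these, nor changes under 2-fold.

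Genes given in every array were, for each class and comparison, the called members of largest change (6 at most), the 2 brightest of a class, and neighbours of these. For the lists of genes that act on collagens, up to 4 called members per list and comparison were named. Col4a1, Col4a2, Col5a1, Col12a1, Col13a1, Col17a1, Col18a1, the remaining members and Nid2 are named outside this rule, after their values were seen. The members and lists were chosen with earlier results of these data known.

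Labels give the regions the same replicate numbers. After removal of region means, arrays of the same number correlated at 0.144–0.190 between SV and ST, 0.100–0.148 between SV and RT and 0.069–0.150 between RT and ST. SV arrays correlated best with the ST array, and where there was one the RT array, of their own number, so numbers were taken to pair these. RT replicates 2 and 3 correlated best with an ST array of another number, and RT and ST were not taken as paired. The ranges overlap, so these correlations do not settle the pairing. The replicate block, other scalings, a floor, other probe sets, the methods' t-test and leaving out each array were tried. Promoter windows are RefSeq's on GRCm38.p6. Plots and promoter searches used Python 3.11.15 with matplotlib 3.10.9.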

Additional observations from a re-analysis of the deposited data

Results flagged for a closer look

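Of 84 groups of 4 arrays (42 genes in SV and in ST), 4 held an array far from the other 3, and chance alone gives about 1 in 20. Col4a5 in SV replicate 3 had a signal of 1669, the lowest, and the next was 3140.3. Col12a1 in SV replicate 3 had 8.62, the lowest, and the next was 71.5. Col12a1 in ST replicate 2 had 129, the highest, and the next was 49.1. Col11a1 in ST replicate 1 had 20.3, the lowest, and the next was 43.3.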

How the results depend on the processing

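Of 13 called pairs of gene and comparison, under 325 combinations with an alternative, 287 kept their direction and their side of the threshold, 36 lost the call and 2 changed sign. The 2 came with the probe set of largest variance, in RT against ST (Col6a4 -0.26, Col14a1 -0.092). Col1a1 and Col8a2 in RT against ST kept the call in each of 25 alternatives. The count of collagen genes higher in SV than in ST, 0, became 1 with dim probe sets left out, the replicate block, replicates 1 and 2 against 3 and 4 as a block, replicates 1 and 2 only, any probe set or the probe set of largest variance, 2 with the methods' t-test without adjustment, and 0 to 2 when 1 array was left out (2 without SV replicate 3). The count higher in RT than in ST, 11, became 4 with median centring and within replicates 3 and 4, and 18 with no fold threshold or any probe set. With the replicate block it was 12, and the numbers there were not taken as pairs. The count higher in SV than in RT, 0, became 1 with quantile normalization, median centring or replicates 1 and 2 only. The count lower in SV than in RT, 2, became 1 with median centring, 0 within replicates 3 and 4, 4 with the replicate block, the block of replicate sets, replicates 1 and 2 only, any probe set or largest variance, 6 with no fold threshold, and 2 to 4 when 1 array was left out (4 without SV replicate 4). Except where a setting tests fewer arrays or more probe sets, the cause was not tested. Low signals limit the genes under about 100, where 1 array can set a fold change.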
